A study of Mus musculus with 8 samples.

Results

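Of the 54532 genes in the deposited mouse brain count table, 78 were protein-coding genes with a mitochondrial ribosomal protein name (Mrpl or Mrps followed by a digit), and 77 of them were kept because at least 2 libraries held at least 10 counts. The gene not kept was Mrpl53, a large-subunit gene with 0 counts in all 8 libraries. It lies at chr6:83109040-83109939 on the plus strand (mm10), and 88.0% of its 790 exonic bases are shared with exons of Gm42688 on the same strand. The 77 genes were read in the brains of wild-type mice (WT) and of mice whose label is CAA, cerebral amyloid angiopathy, the deposition of amyloid-beta in the walls of brain blood vessels. Mice of each kind were mock-treated or put under chronic restraint stress, and all were perfused with PBS before the brain was taken. Each of the 4 groups (mock and stress in WT, mock and stress in CAA) had 2 libraries, named here as WT mock 1, CAA stress 2 and so on. The strain, the transgene or allele behind CAA, the age, the length of the stress and the piece of brain used were not given in the sources used here. The labels do not say that replicates came from separate animals, so a p-value reflects no more than the spread between the samples at hand.

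Mitochondria hold their own ribosome, the mitoribosome, which makes the few proteins encoded by mitochondrial DNA, all of them parts of the respiratory chain and the ATP synthase. Its ribosomal RNAs, mt-Rnr1 of the small subunit and mt-Rnr2 of the large subunit, are transcribed from mitochondrial DNA, whereas all its proteins are encoded in the nucleus, made in the cytosol and imported. Some of these proteins descend from bacterial ribosomal proteins and others are specific to mitochondria; neurons depend on the respiratory chain for much of their ATP. Names do not always give the place of a protein: Mrps30 and Mrps18a carry small-subunit names but sit in the large subunit, and Mrps36 is now regarded as a component of the 2-oxoglutarate dehydrogenase complex, an enzyme of the citric acid cycle.

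The 77 genes were spread over 17 chromosomes, with 11 on chromosome 11 and 8 on chromosome 17. For 33 of them (42.9%), another protein-coding gene started on the opposite strand within 1000 bases of the deposited start, against 2113 of 14693 protein-coding genes tested (14.4%). Such a pair shares 1 stretch of DNA between or across both starts. Mrpl46 and Mrps11 formed such a pair with each other on chromosome 7. Mrps12, whose protein lies at the decoding centre, faced Sars2, the mitochondrial seryl-tRNA synthetase, with 172 bases between the starts, and Mrpl43 faced Twnk, the mitochondrial DNA helicase, with 116. Overlap with any other gene of the table was found for 40 of 77 members (52.0%) and for 53.6% of the protein-coding genes tested, and 45 members shared no exonic base with another gene.

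RefSeq promoter windows of build GRCm38.p6 (300 bases, of which 50 follow the transcription start) lay within 1000 bases of the deposited start for 64 of the 77. They were searched on both strands for short cores of factors known from promoters of mitochondrial genes: GCGCNTGC of NRF1, CCGGAAG of ETS factors such as GABPA, AAGATGGC of YY1, and TATAAA, the TATA box. The NRF1 core can overlap its own match on the other strand. The NRF1 core was present in 20 of the 64 member windows (31.3%), in 18.8% of the 10434 windows of genes tested and in 9.61% of all 32851 windows. The ETS core was present in 22 (34.4%, against 16.9% and 8.86%) and the YY1 core in 9 (14.1%, against 4.38% and 2.75%). The TATA letters were present in 3 (4.69%, against 6.97% and 13.6%), and any of NRF1, ETS and YY1 in 38 (59.4%, against 34.7% and 18.8%). The median GC content was 58.5% in the member windows and 61.0% in those of genes tested. These shares describe the letters in the windows only.

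Of the named members, 6 held 2 different cores, and the first 4 of these in alphabetical order are shown because they cover all 3 cores and both strands. Each line gives the 250 bases before the RefSeq start, 5′ to 3′ on the gene's strand, with matches to a core in capitals. The windows are Mrpl32 at chr13:14613038-14613287 (minus), Mrpl57 at chr14:57825989-57826238 (plus), Mrps12 at chr7:28741822-28742071 (minus) and Mrps18a at chr17:46110754-46111003 (plus). Positions give the first base of a match as printed, with -1 the last base before the start. Mrpl32 held the YY1 core once, at position -242, and the NRF1 core 4 times, between positions -87 and -22. The plus-strand match at -87 overlaps the minus-strand match at -85. The deposited start of Mrpl32 lies 128 bases upstream of the RefSeq start, so all 4 NRF1 matches lie inside the deposited gene. Psma2 starts on the other strand 75 bases beyond that deposited start, and the YY1 match lies inside Psma2. Mrpl57 held NRF1 at position -55, Mrps12 held YY1 at -199 and Mrps18a held ETS at -26. Sars2 starts on the other strand 172 bases from the deposited start of Mrps12, so that YY1 match lies inside Sars2. The second core of Mrpl57, Mrps12 and Mrps18a began after the RefSeq start and lies outside the printed run.
Mrpl32: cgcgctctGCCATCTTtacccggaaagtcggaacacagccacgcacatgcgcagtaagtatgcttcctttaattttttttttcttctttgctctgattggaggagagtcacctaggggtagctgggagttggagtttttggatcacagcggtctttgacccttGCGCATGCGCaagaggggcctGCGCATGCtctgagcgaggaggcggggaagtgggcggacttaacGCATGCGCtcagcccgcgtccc
Mrpl57: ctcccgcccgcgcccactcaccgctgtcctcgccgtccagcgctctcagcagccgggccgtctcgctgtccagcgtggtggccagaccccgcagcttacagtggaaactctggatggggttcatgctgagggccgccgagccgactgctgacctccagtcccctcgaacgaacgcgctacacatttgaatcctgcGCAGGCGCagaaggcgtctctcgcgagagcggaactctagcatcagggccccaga
Mrps12: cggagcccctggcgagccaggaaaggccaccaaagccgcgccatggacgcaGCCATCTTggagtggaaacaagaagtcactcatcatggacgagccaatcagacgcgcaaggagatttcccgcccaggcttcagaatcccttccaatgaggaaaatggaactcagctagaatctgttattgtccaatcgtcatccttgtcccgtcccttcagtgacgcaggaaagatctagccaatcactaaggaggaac
Mrps18a: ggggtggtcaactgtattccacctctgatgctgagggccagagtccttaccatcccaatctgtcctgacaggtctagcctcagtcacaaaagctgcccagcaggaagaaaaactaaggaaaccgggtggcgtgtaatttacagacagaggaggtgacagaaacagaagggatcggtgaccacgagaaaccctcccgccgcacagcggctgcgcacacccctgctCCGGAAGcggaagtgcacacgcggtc

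The libraries held 17275201 to 18894657 gene counts, of which the 77 members took 0.206% to 0.241%. Every member passed the filter on low counts, with 121 to 1558 counts in any library and a median total of 3839, against 2174.5 for the 17182 genes tested. Brain markers of neurons, astrocytes, oligodendrocytes, microglia and endothelium were present in all libraries with none at 0, but their summed levels differed between libraries. The 3 neuron markers summed to 3740 to 4280 CPM (counts scaled by library total and TMM factor) in the 4 WT libraries and to 2874 to 3703 in the 4 CAA libraries, which were all lower; their mean centred log2 level was above 0 in all 4 WT libraries and in CAA stress 2. The 3 oligodendrocyte markers summed to 4262 CPM in WT stress 1 and 4631 in CAA stress 2, against 10718 in CAA stress 1, 11706 in CAA mock 2 and 5594 to 7156 in the others. Astrocyte markers summed to 988 to 1637 CPM, microglial to 126 to 202, endothelial to 64.7 to 103, those of excitatory forebrain neurons to 823 to 1856 and those of muscle to 5.69 to 11.4. Blood markers summed to 119 CPM in WT stress 1 and 2.25 to 16.7 in the others. Markers of brain regions set some libraries apart: the 7 striatal markers summed to 147 and 134 CPM in WT mock 1 and CAA mock 2, against 622 to 1158 in the other 6. The 6 hypothalamic markers summed to 86.7 CPM in CAA mock 1, 107 in CAA stress 1 and 128 in CAA stress 2, against 1.51 to 39.1 in the other 5, with Oxt at 0 in WT mock 1 and Hcrt at 0 in WT mock 2 and WT stress 1. The 5 olfactory bulb markers summed to 5.70 to 12.3 CPM in WT mock 1, CAA mock 1, CAA mock 2 and CAA stress 1, against 52.3 to 76.7 in the other 4. Choroid plexus markers summed to 525 CPM in WT stress 2, 426 in CAA stress 1 and 198 in CAA mock 1, against 12.3 to 48.96 in the others. By Xist and Y-linked counts, WT mock 1 and CAA stress 1 were female and the other 6 male. The part of these differences in the results below was not tested, apart from the fits given with the pair low in striatal markers left out or with a term for sex. In bulk tissue, fewer cells of a type and less RNA per cell cannot be told apart.

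Levels per gene length spanned 26.4-fold, from a mean of 2.10 FPKM (the deposited values, scaled to gene length and library size) to 55.4, with a median of 10.96, against 3.54 over all genes tested. The highest was Mrpl41, a mitochondria-specific large-subunit protein, at 51.5 and 54.3 FPKM in WT mock, 59.8 and 41.5 in WT stress, 69.2 and 54.7 in CAA mock, and 70.7 and 41.5 in CAA stress. Its lowest library lay above the highest library of each of the next 4 genes: Mrps21, the counterpart of bacterial S21 (32.1 ± 4.09 FPKM, SD over the 8 libraries), Mrpl34 (31.8 ± 3.69), Mrpl27, which lies near the peptidyl transferase centre (31.7 ± 4.45), and Mrps33 (29.4 ± 6.14). Those 4 overlapped each other, so their order is not resolved by the libraries. The lowest 5 were Mrpl33 (2.10 ± 0.304 FPKM), Mrps35 (2.27 ± 0.2999), Mrps30 (2.88 ± 0.505), Mrpl32 (3.15 ± 0.423) and Mrpl15 (3.23 ± 0.361). Mrpl33 and Mrps35 overlapped each other, as did Mrps30, Mrpl32 and Mrpl15. FPKM divides by the deposited gene length, which was 888 bases for Mrpl41 and 7326 for Mrpl33, whose annotated span of chr5:31596935-31664384 overlaps other genes over 67447 of its 67450 bases. Members of the same particle thus differed in level per length by more than any of them differed between libraries, where the highest over the lowest library was 1.10 to 2.22.

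**Figure D1:**
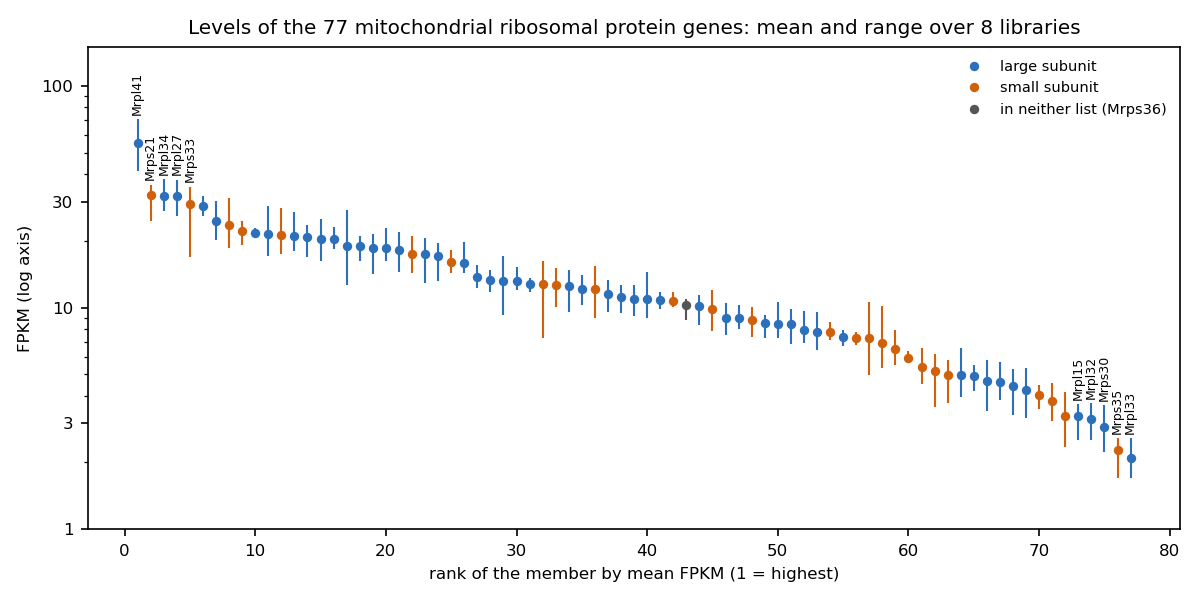
Mean FPKM (points, log axis) and range over the 8 libraries (lines) of the 77 members in order of mean, coloured by subunit of the protein. Mrpl41 stands above the rest at 55.4 FPKM and Mrpl33 is lowest at 2.10.

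To compare libraries across genes of different level, the mean over the 8 libraries was subtracted from each gene's log2 CPM (centred values). The SD of the centred values had a median of 0.19 over the members and 0.27 over all genes tested, whose counts were lower as given above. The members' median stood at -0.05 in WT mock 1, -0.01 in WT mock 2, -0.06 in WT stress 1 and -0.08 in WT stress 2. It stood at 0.15 in CAA mock 1, 0.02 in CAA mock 2, 0.10 in CAA stress 1 and -0.12 in CAA stress 2. Of the 77 members, 67 were above their own mean in CAA mock 1 and 16 in CAA stress 2, whereas the share of all genes above their mean stayed between 50.9% and 52.3% in every library. CAA mock 1 and CAA stress 1 held the highest value of 20 and 21 members, and CAA stress 2 held the lowest of 29. The same counts were not made over all genes tested, so they may not be particular to the members. The CAA stress group joined the library with the second-highest median and the one with the lowest. The 77 cytosolic ribosomal protein genes, parts of the ribosome outside mitochondria, had the same pair of extremes, 0.21 in CAA mock 1 and -0.26 in CAA stress 2, with 0.18 in CAA stress 1. CAA stress 2 also had the lowest share of counts from mitochondrial DNA, 6.10% against 7.89% to 9.99% elsewhere, and the part of this in its low members was not tested.

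**Figure D2:**
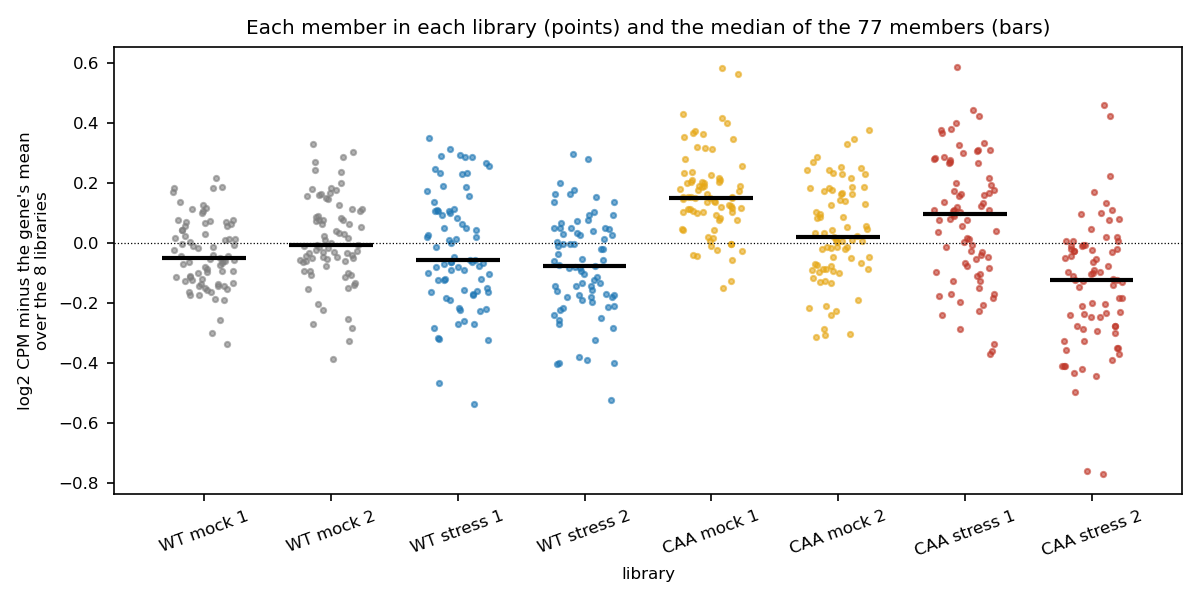
Centred log2 CPM (y axis) of each member (points) in each of the 8 libraries (x axis), with the median of the 77 as a bar. CAA mock 1 has the highest median, 0.15, and CAA stress 2 the lowest, -0.12.

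The members nearest to the median profile were Mrpl11, which lies at the base of the stalk where translation factors bind, Mrpl49, Mrpl24, Mrpl46 and Mrpl58, a peptidyl-tRNA hydrolase built into the large subunit. Their root mean square distance over the 8 libraries was 0.05 to 0.08 on the log2 scale. Mrpl11 stood at 37.7 and 40.9 CPM in WT mock, 35.6 and 39.0 in WT stress, 45.3 and 42.4 in CAA mock, and 42.7 and 37.4 in CAA stress, and its WT and CAA libraries overlapped. The farthest were Mrps34 (0.31), Mrps18c (0.31), Mrps33 (0.31), Mrps22 (0.29) and Mrpl14 (0.27). Mrps18c, a counterpart of bacterial S18, was at 12.4 to 17.6 CPM in 7 libraries and at 7.93 in CAA stress 2; 23.2% of its exonic bases are shared with Gm43511 on the same strand. Mrps33 was at 43.0 to 59.3 CPM in 7 libraries and at 28.4 in CAA stress 2.

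Averaged over mock and stress (CAA averaged), the CAA minus WT difference in log2 level was above 0 for 49 members and below 0 for 28 (63.6% above, against 50.2% of all genes), with a median of 0.05 against 0.0011 over all genes. The median was -0.0052 without CAA stress 1, 0.11 without CAA stress 2, 0.03 without CAA mock 1 and 0.09 without WT stress 1. Of the 77 cytosolic ribosomal protein genes, 64 were above 0 and 13 below, with a median of 0.12. None of the 77 members was called, that is, passed an adjusted p of 0.05 by edgeR's quasi-likelihood test with Benjamini-Hochberg adjustment over all genes tested, where 0.0116% of all genes did (2 of 17182). DESeq2 called none of the members either. At an unadjusted p of 0.05, 4 members were higher in CAA and 0 lower, 5.19% of the members against 8.38% of all genes. The CAA libraries did not overlap the WT libraries for 5 members: Mrpl28, Mrpl43, Mrps11 and Mrps34 were higher in all 4 CAA libraries (2% of all genes were) and Mrpl19 was lower (2.76% were). All 5 were singled out from these same values, Mrps34 also by its small p. The summed neuron markers were also lower in all 4 CAA libraries, but other summaries differed. Their mean centred level in CAA stress 2 (0.16) lay between those of WT mock 2 (0.03) and WT stress 1 (0.18). Markers of excitatory forebrain neurons were highest in CAA stress 2, at 1856 CPM. The part of neuron content in these differences was not tested.

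Mrps34, a small-subunit protein specific to mitochondria, had the smallest p. It stood at 11.1 and 11.2 CPM in WT mock, 12.7 and 11.2 in WT stress, 21.1 and 14.98 in CAA mock, and 14.1 and 19.4 in CAA stress. The lowest CAA library was above the highest WT library, with a log2 fold change of 0.59 ± 0.17 (SE, edgeR adjusted p = 0.527, n = 4 and 4). Its gene at chr17:24895116-24897502 lies wholly within Mapk8ip3 (opposite strand) and overlaps Nme3 (same strand), and 77.8% of its exonic bases are shared with exons of other genes, 37.0% on the same strand. Nme3 had 0 counts in all 8 libraries, and Mapk8ip3, with 364 to 457 CPM, differed by 0.12 ± 0.10 (edgeR adjusted p = 0.766). The level of Mrps34 is therefore uncertain, as reads of shared exons could be split or dropped in the counting. Mrpl54, a mitochondria-specific large-subunit protein, stood at 14.9 and 14.8 CPM in WT mock, 10.6 and 12.8 in WT stress, 19.8 and 15.9 in CAA mock, and 23.1 and 14.4 in CAA stress (0.47 ± 0.18, edgeR adjusted p = 0.578). CAA stress 2 lay within the WT range. Mrps16, the counterpart of bacterial S16, stood at 18.6 and 20.9 CPM in WT mock, 18.5 and 14.4 in WT stress, 30.6 and 20.8 in CAA mock, and 23.1 and 22.1 in CAA stress (0.42 ± 0.16, edgeR adjusted p = 0.578). Here CAA mock 2 lay just under WT mock 2. The fourth member at an unadjusted p under 0.05 was Mrpl14 (0.40 ± 0.17).

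With the groups taken apart, CAA mock against WT mock (CAA in mock) gave 60 members above 0 and 17 below (77.9% above, against 50.7% of all genes), with a median of 0.11 against 0.0046. Calls numbered 0 among the members (0.0116% of all genes), and 1 of 77 had an unadjusted p under 0.05, against 4% of all genes. That member was Mrps34 (0.69 ± 0.24, edgeR adjusted p = 0.998). The next 2 were Mrpl21, a counterpart of bacterial L21 (0.39 ± 0.19), at 14.9 and 16.5 CPM in WT mock against 19.8 and 21.4 in CAA mock, and Mrpl40 (0.33 ± 0.18), at 19.2 and 20.1 against 24.8 and 24.4. Both CAA libraries were above both WT libraries for these 2 genes, as for 28 of the 77 members and 16.2% of all genes (both were below for 3 members and 16.7%), and 2 libraries against 2 cannot give an exact permutation p below 0.333. The median depended on CAA mock 1: it was 0.05 without that library and 0.17 without CAA mock 2. All 77 cytosolic ribosomal protein genes were above 0 in this comparison, with a median of 0.19.

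CAA stress against WT stress (CAA under stress) gave 41 members above 0 and 36 below (53.2% above, against 50.7% of all genes), with a median of 0.01 against 0.0055. No member was called (0.0116% of all genes were), and DESeq2 called none. At an unadjusted p of 0.05, 4 members were higher and 6 lower, together 13.0% of the members against 8.22% of all genes. The higher were Mrpl14, Mrpl54, Mrpl38 and Mrps12, and the lower Mrpl42, Mrps30, Mrps33, Mrpl18, Mrpl50 and Mrps31, so the large and the small subunit were on both sides. Mrpl42, a mitochondria-specific large-subunit protein, had the smallest p: it stood at 52.4 and 47.6 CPM in WT stress against 35.8 and 36.6 in CAA stress (-0.47 ± 0.15, edgeR adjusted p = 0.579). Mrps30, the large-subunit protein with a small-subunit name, stood at 24.4 and 20.4 CPM against 15.2 and 15 (-0.57 ± 0.19, edgeR adjusted p = 0.579). Mrpl14, which lies on the face of the large subunit that meets the small one, stood at 8.92 and 9.48 CPM against 16.4 and 13.9 (0.72 ± 0.24, edgeR adjusted p = 0.579). The stressed WT and CAA libraries did not overlap for these 3 genes, nor for many others: both CAA libraries were higher for 20 members (19.5% of all genes) and lower for 19 (20.4%). Both stressed CAA libraries also had more of the hypothalamic markers than both stressed WT libraries, and the part of this in the values was not tested. The members' median was -0.06 without CAA stress 1, 0.13 without CAA stress 2, 0.04 without WT stress 1 and -0.02 without WT stress 2, so its sign rested on single libraries; it was -0.04 with a term for sex and -0.0044 by limma on log2(FPKM + 0.1).

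**Figure D3:**
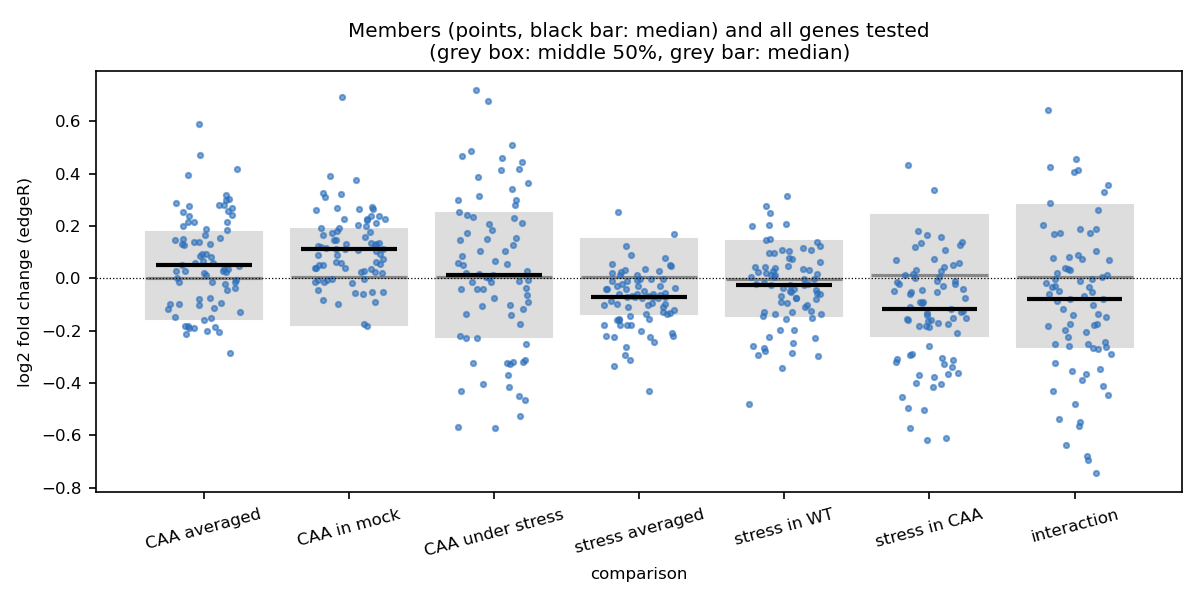
Log2 fold change (y axis) of each member (points, black bar at the median) in the 7 comparisons (x axis), beside the middle part (quartiles) of all genes tested (grey box, grey bar at the median). The members' median is 0.11 for CAA in mock and -0.12 for stress in CAA, with points on both sides of 0 in all 7.

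Averaged over WT and CAA (stress averaged), the stress minus mock difference was above 0 for 15 members and below 0 for 62 (19.5% above, against 50.6% of all genes), with a median of -0.07 against 0.0034. The median stayed below 0 under every setting tried, from -0.14 without the pair low in striatal markers to -0.03 without CAA stress 2; it was -0.13 without CAA stress 1, -0.11 without CAA mock 2 and -0.04 without CAA mock 1. The 77 cytosolic ribosomal protein genes lay further to the same side, with 5 above 0, 72 below and a median of -0.12. By edgeR 0 members and 0 genes in all (0%) were called, and DESeq2 called 0 members and 3 genes in all. At an unadjusted p of 0.05, 0 members were higher and 5 lower, 6.49% against 3.82% of all genes. The stressed libraries did not overlap the mock libraries for 0 members in the upward direction (0.96% of all genes) and for 1 in the downward direction, Mrpl48 (0.867%). Mrpl48, a protein of the central protuberance of the large subunit, had the smallest p; its processed pseudogene Mrpl48-ps held 208 counts in all. It stood at 79.8 and 77.7 CPM in WT mock and 68.2 and 80.6 in CAA mock, against 63.2 and 65.3 in WT stress and 61.9 and 56.7 in CAA stress. All 4 stressed libraries lay below all 4 mock libraries (-0.31 ± 0.11, SE, edgeR adjusted p = 0.920, n = 4 and 4). Mrps22, a mitochondria-specific small-subunit protein, stood at 22.8, 24.8, 23.5 and 23.9 CPM in the mock libraries, at 24.7 and 15.3 in WT stress, and at 16.6 and 14.4 in CAA stress (-0.43 ± 0.16, edgeR adjusted p = 0.920). WT stress 1 lay within its mock range, and the value was -0.28 without WT stress 2. Mrpl30, a counterpart of bacterial L30, stood at 55.7 to 63.5 CPM in the mock libraries, 58.5 and 55.2 in WT stress and 47.9 and 43.2 in CAA stress (-0.24 ± 0.11, edgeR adjusted p = 0.920). The other 2 members under an unadjusted 0.05, Mrps33 (-0.33 ± 0.15) and Mrps25 (-0.29 ± 0.13), also lay below 0.

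In WT alone (stress in WT), stress against mock gave 33 members above 0 and 44 below (42.9% above, against 49.6% of all genes) and a median of -0.02 against -0.0016. Among the members 0 were called (0% of all genes), and 0 of 77 had an unadjusted p under 0.05, against 1.59% of all genes; DESeq2 called 0. The 3 smallest p belonged to Mrpl48 (-0.29 ± 0.15), Mrpl14 (-0.48 ± 0.24) and Mrpl57 (-0.28 ± 0.18). Mrpl14 stood at 11.8 and 13.9 CPM in WT mock against 8.92 and 9.48 in WT stress, and Mrpl57, a small mitochondria-specific large-subunit protein, at 23.4 and 24.3 against 19.2 and 20.1. The median was -0.08 without WT stress 1 and -0.05 without WT mock 1, and with a term for sex it was 0.01, on the other side of 0.

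In CAA alone (stress in CAA), stress against mock gave 21 members above 0 and 56 below (27.3% above, against 51.4% of all genes) and a median of -0.12 against 0.01. No member was called (0% of all genes); DESeq2 called 0 members and 14 genes in all. At an unadjusted p of 0.05, 1 member was higher and 6 lower, 9.09% against 6.94% of all genes. The higher was Mrpl38, and the lower were Mrpl42, Mrps33, Mrpl30, Mrps22, Mrps30 and Mrpl32. Mrpl42 had the smallest p: it stood at 52.9 and 54.6 CPM in CAA mock against 35.8 and 36.6 in CAA stress (-0.57 ± 0.15, edgeR adjusted p = 0.696). Mrps33 stood at 51.0 and 58.4 CPM against 43.0 and 28.4 (-0.62 ± 0.21), and Mrpl30 at 58.9 and 62.5 against 47.9 and 43.2 (-0.41 ± 0.15). Both stressed libraries were below both mock libraries for these 3 genes, as for 26 of the 77 members and 19% of all genes; they were above for 2 members and 18.3% of all genes. The median was -0.21 without CAA stress 1, -0.04 without CAA stress 2, -0.18 without CAA mock 2 and -0.04 without CAA mock 1. Among the 77 cytosolic ribosomal protein genes, 13 were above 0 and 64 below, with a median of -0.21.

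The difference between the 2 stress effects, stress in CAA minus stress in WT, was tested as an interaction. No member was called (0% of all genes), and 0 members were higher and 3 lower at an unadjusted p of 0.05, 3.90% against 3.46% of all genes; DESeq2 called 0 members. It was above 0 for 27 members and below for 50 (35.1% above, against 50.4% of all genes), with a median of -0.08 against 0.0041. The median was -0.22 without CAA stress 1, -0.17 without CAA mock 2, -0.01 without CAA mock 1, -0.05 without WT stress 1, and -0.00098 with CAA stress 2 left out. The 3 members were Mrpl42 (-0.69 ± 0.21), Mrps30 (-0.74 ± 0.27) and Mrps31 (-0.68 ± 0.26), with an edgeR adjusted p of 0.995 each. Mrps31 stood at 15.8 and 17.5 CPM in WT mock, 21.8 and 18.4 in WT stress, 19.9 and 19.9 in CAA mock, and 15.05 in each CAA stress library. For these 3 genes both CAA stress libraries lay below the other 6, as they did for 12 members and 7.56% of all genes, and the comparisons that name them share those libraries. The 2 female libraries, WT mock 1 and CAA stress 1, fall in the 2 groups that enter the interaction with a plus sign, so it was not balanced for sex. With a term for sex, 22 members were above 0 and 55 below.

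**Figure D4:**
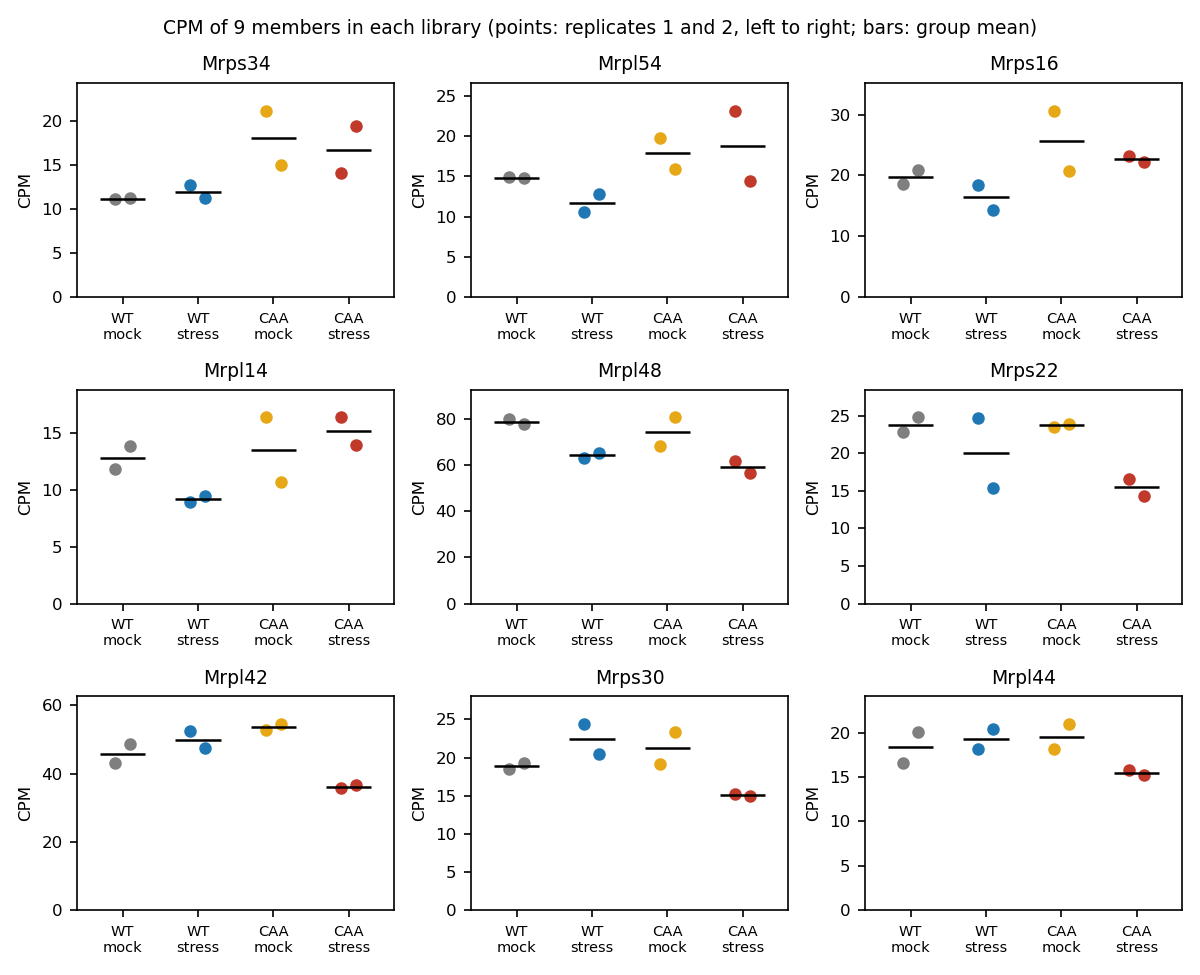
CPM (y axes from 0) of 9 members in the 4 groups, with replicates 1 and 2 as points from left to right and the group mean as a bar. Mrps34 is higher in all 4 CAA libraries, Mrpl48 lower in all 4 stressed libraries, and Mrpl42 and Mrps30 lowest in both CAA stress libraries.

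By role, the members were divided into counterparts of bacterial proteins and proteins specific to mitochondria, with Mrps36 in neither class. For CAA averaged, 21 of 30 large-subunit counterparts were above 0 (median 0.09), as were 12 of 20 large-subunit proteins specific to mitochondria (0.03), 9 of 16 small-subunit counterparts (0.06) and 6 of 10 small-subunit proteins specific to mitochondria (0.01). For stress averaged, 23 of 30, 15 of 20, 14 of 16 and 9 of 10 were below 0 in the same order, with medians of -0.10, -0.07, -0.04 and -0.08. All 4 classes had a median of the same sign in each of these 2 comparisons, and the differences between classes were not tested. A list of 6 genes with names outside the Mrpl and Mrps series, such as Ptcd3, lay on the same sides. Of these, 4 of 6 were above 0 for CAA averaged (median 0.06) and 5 of 6 below 0 for stress averaged (-0.11). The list counts Oxa1l, a membrane insertase that binds the mitoribosome and is not one of its subunits. Oxa1l stood above 0 in both comparisons (0.05 ± 0.11 in each). Among the members with known special roles, Mrpl12, the stalk protein that recruits translation factors, stood at 31.6 and 30.7 CPM in WT mock, 28.2 and 29.7 in WT stress, 41.9 and 26.5 in CAA mock, and 44.5 and 32.9 in CAA stress. Its CAA and WT libraries overlapped through CAA mock 2 (CAA averaged 0.28 ± 0.16, edgeR adjusted p = 0.651). Mrps12 stood at 24.1 and 20.04 CPM in WT mock, 19.5 and 24.9 in WT stress, 27.9 and 20.7 in CAA mock, and 32.8 and 28.5 in CAA stress (0.30 ± 0.15, edgeR adjusted p = 0.612). Both CAA stress libraries were above the other 6 for this gene, as for 2 members and 5.56% of all genes. Mrpl3, next to the peptidyl transferase centre, ranged from 63.7 to 85.3 CPM, Mrpl58 from 33.1 to 39.7, Mrps27, a pentatricopeptide repeat protein that binds RNA, from 21.3 to 24.8, Mrps18a from 29.7 to 38.2, and Mrps36 from 11.4 to 14.1. Their groups overlapped, with log2 fold changes for CAA averaged of -0.16 ± 0.11, 0.01 ± 0.12, -0.04 ± 0.12, 0.09 ± 0.13 and 0.03 ± 0.15.

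Mrpl44, a large-subunit protein with an RNase III fold, was read beside its neighbour. Its gene at chr1:79776018-79781445 on the plus strand overlaps Wdfy1, which starts on the opposite strand, by 126 bases at the starts of both, and 7.7% of its exonic bases are shared with exons of another gene. Wdfy1 was 1 of the 2 genes called for CAA averaged, at 9.87 to 12.5 CPM in the 4 WT libraries and 47.3 to 65.7 in the 4 CAA libraries (2.30 ± 0.14, edgeR adjusted p = 5.15e-05). Mrpl44 stood at 16.6 and 20.2 CPM in WT mock, 18.2 and 20.4 in WT stress, 18.2 and 21.0 in CAA mock, and 15.8 and 15.2 in CAA stress. Its WT and CAA libraries overlapped, and its log2 fold change was -0.11 ± 0.14 (edgeR adjusted p = 0.826).

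The genes that act with the mitoribosome were counted from lists, and none of them was called by edgeR in any of the 7 comparisons. Assembly factors and rRNA-modifying enzymes were above 0 for 13 of 24 in CAA averaged (median 0.01) and for 9 of 24 in stress averaged (-0.02). Their smallest p belonged to Mettl15, an rRNA methyltransferase of the small subunit (-0.54 ± 0.23), and Mterf3 (-0.26 ± 0.14) for CAA averaged, and to Fastkd2, an RNA-binding assembly factor (-0.42 ± 0.16), and Mterf4 (-0.27 ± 0.16) for stress averaged. Mitochondrial translation factors were above 0 for 3 of 13 in both comparisons, with medians of -0.05 and -0.06; the smallest p were those of Tsfm (0.25 ± 0.16), an elongation factor, and Mtrf1l (-0.28 ± 0.20), a release factor, then Gfm1 (-0.18 ± 0.11) and Mtif2 (-0.20 ± 0.13). Mitochondrial aminoacyl-tRNA synthetases, which charge the tRNAs, were above 0 for 10 of 20 (0.0067) and 6 of 20 (-0.08), led by Hars2 (-0.19 ± 0.13) and Aars2 (0.20 ± 0.14), then Cars2 (-0.25 ± 0.17) and Mars2 (-0.16 ± 0.13). Regulators of mitochondrial transcription and biogenesis were above 0 for 4 of 16 in CAA averaged (median -0.15), with Tfb2m, a transcription factor of mitochondrial DNA, at -0.28 ± 0.13, and for 8 of 16 in stress averaged (-0.01), led by Ppargc1b (0.34 ± 0.23) and Gabpa (-0.18 ± 0.14). Among other mitoribosomal proteins the smallest p were those of Gadd45gip1 (0.19 ± 0.13) and Ptcd3 (-0.12 ± 0.11) for CAA averaged, and of Ptcd3 (-0.18 ± 0.11) and Chchd1 (-0.18 ± 0.14) for stress averaged.

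The RNAs that the mitoribosome contains and reads lay mostly below 0 for CAA averaged, and their values in mock and under stress are given apart. For CAA averaged, 12 of 13 mitochondrial mRNAs were below 0 (median -0.22). Here mt-Co2, a cytochrome oxidase subunit, was at -0.40 ± 0.14 and mt-Atp8, an ATP synthase subunit, at 1.14 ± 0.44 (edgeR adjusted p = 0.544 and 0.578). The level of mt-Atp8 was low, at 1.07 to 1.37 CPM in the WT libraries. It stood at 3.91 and 1.13 CPM in CAA mock and 4.14 and 1.61 in CAA stress, so CAA mock 2 lay within the WT range. For stress averaged, 9 of 13 were below 0 (-0.17), led by mt-Nd3 (-0.34 ± 0.16) and mt-Nd2 (-0.27 ± 0.13). Over the 8 libraries mt-Co2 stood at 157 to 298 CPM and mt-Nd3 at 27.9 to 67.7, against 18304 to 29467 for mt-Co1. Whether reads of the lower mRNAs were split or dropped in the counting was not tested. The mitochondrial rRNAs mt-Rnr2 and mt-Rnr1 were at -0.13 ± 0.14 each for CAA averaged, and at -0.29 ± 0.14 and -0.23 ± 0.14 for stress averaged. In CAA mock against WT mock, 9 of the 13 mRNAs were below 0 with a median of -0.04, none had an unadjusted p under 0.05 (4% of all genes), and both rRNAs were above 0 (median 0.14). In CAA stress against WT stress, 7 of the 13 mRNAs were lower and 0 higher at an unadjusted p of 0.05 (8.22% of all genes in both directions), with a median of -0.43, and both rRNAs were below 0 (-0.40), beside a members' median of 0.01. No mitochondrial RNA was called in either, and the difference between the arms, tested gene by gene as the interaction, called none by edgeR, with 1 mRNA at an unadjusted p under 0.05 (3.46% of all genes). By library, the median centred level of the mRNAs was -0.53 in CAA stress 2 and -0.08 to 0.21 in the others, and CAA stress 2 was also the lowest library for the members. Mitochondrial DNA gave 7.89% and 6.10% of counts in CAA stress, and 9.74% and 8.93% in WT stress. The mRNAs come from 1 genome and are not independent observations, so 7 of 13 under stress cannot be weighed against the share of all genes.

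The spread of members within a comparison moved with base composition. The GC content of the longest transcript of each member ran from 38.6% to 60.4%, with a median of 49.7%, against 49.6% over all genes with a value. Across the 77 members, the log2 fold change of CAA stress against WT stress correlated with GC content at r = 0.63 (Spearman 0.62), and across 17163 genes tested at 0.42 (0.55); genes are not independent replicates, all share the same 4 libraries, and no p is given. The 26 members of lowest GC had a median of -0.20, with 7 above 0 and 19 below, and the 25 of highest GC a median of 0.30, with 23 above and 2 below. For CAA averaged the corresponding medians were -0.09 and 0.26 (r = 0.615, and 0.317 over all genes). For stress in CAA they were -0.31 and 0.02 (r = 0.59, and 0.29 over all genes). Log2 gene length correlated with the members' values at -0.37 for CAA under stress and -0.37 for CAA averaged (-0.05 and -0.11 over all genes). The relation of the members to GC was weaker for CAA in mock (r = 0.26) and opposite in sign for stress in WT (r = -0.17), and the differences between these values were not tested. Within single libraries, centred levels of the members correlated positively with GC in CAA stress 1 and 2 (r = 0.55 and 0.57) and CAA mock 1 (0.36), and negatively in the other 5 (-0.14 to -0.58). Over all genes with a value the sign was the same in every library, at 0.35, 0.28 and 0.16 in the same order and -0.05 to -0.31 in the other 5. CAA stress 1, CAA stress 2 and CAA mock 1 are also the libraries highest in hypothalamic markers, whose part in the relation was not tested. Mrpl14 and Mrpl54, which had the 2 largest values for CAA under stress, have a GC content of 59.4% and 60.4%, and Mrps30 and Mrps33, which had the 2 lowest, have 40.4% and 44.0%. With each library's trend on GC over all genes entered as an offset, the CAA under stress values became 0.39 for Mrpl14 (from 0.72), -0.30 for Mrps30 (from -0.57) and -0.27 for Mrpl42 (from -0.47), and the CAA averaged value of Mrpl54 became 0.26 (from 0.47). Under the same offset, Mrps34 was at 0.38 for CAA averaged (from 0.59), Mrps16 at 0.46 (from 0.42) and Mrpl48 at -0.27 for stress averaged (from -0.31), and the members' medians were 0.07 and -0.08.

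**Figure D5:**
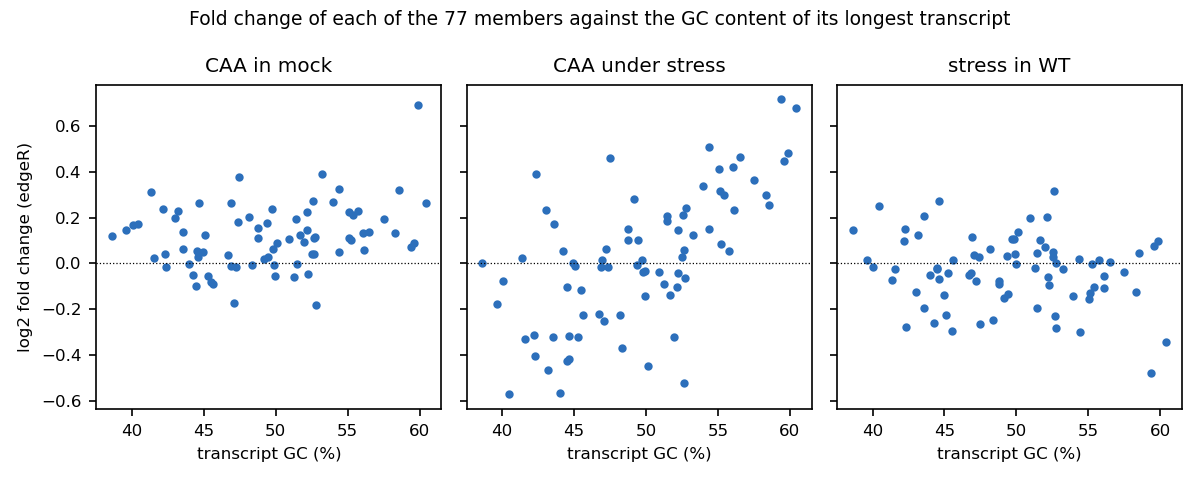
Log2 fold change (y axis) of the 77 members against the GC content of their longest transcript (x axis, percent) in 3 comparisons. Points run upward with GC for CAA under stress (r = 0.63) and less so for CAA in mock (0.26), and not for stress in WT (-0.17).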

How the data were processed

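Gene counts, deposited as raw counts of reads per gene, and FPKM, deposited by the authors as a separate table, were used for 8 libraries. The reads were aligned with HISAT2 2.0.5 to mm10 and counted with featureCounts 1.5.0-p3, per the submitters' processing notes. Parameters, strandedness and annotation release were not given in the sources used here, and reads of overlapping genes may have been split or dropped. The libraries came from 5 ug of total RNA and an Illumina kit, per the labels' protocols. Replicates were grouped by title.

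Counts were fitted with edgeR 4.0.16 (R 4.3.3; TMM, filterByExpr, robust quasi-likelihood) over 4 group means and all 8 libraries, with 4 residual degrees of freedom, and two-sided tests had Benjamini-Hochberg adjustment over 17182 genes (threshold 0.05). Log2 CPM used a prior count of 2. DESeq2 1.42.0, limma 3.58.1 on log2(FPKM + 1) and on log2(FPKM + 0.1), no filter, DESeq2 size factors, a replicate block, and leaving out each library were alternatives. A term for sex, a GC offset and leaving out the pair low in striatal markers were chosen after seeing the data. The edgeR step was run on simulated counts drawn with its own fitted spread. The changes put in were larger than that of any member, so the run does not show the power to find changes of the members' size. Chi-square values between library pairs (8.72 to 74.2 per degree of freedom) were above counting noise, so none was a repeat.

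Named members are the 3 with the smallest p in each comparison, the 5 highest and 5 lowest by FPKM, the 5 nearest to and farthest from the median profile, and 9 chosen for their role or position; others were named after their values were seen. Of each other list the 2 with the smallest p in the averaged comparisons are named; 1 regulator is not reported here. The members and lists were chosen with earlier results of these data known. Exon overlaps and transcript GC content came from GENCODE vM21, whose coordinates equal the deposited ones for 72 of the 77 members, and promoter windows from RefSeq.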

Additional observations from a re-analysis of the deposited data

Results flagged for a closer look

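Processed pseudogenes named after members lay outside the comparisons. In at least 1 library, 4 of the 5 in the count table had more than the 3 counts that a count of 0 allows. Over the 8 libraries, Mrpl48-ps had 208 counts (17 to 46 per library), Mrpl23-ps1 had 77 (2 to 15), Mrps36-ps1 had 46 (1 to 11) and Mrps36-ps2 had 22 (1 to 5). Mrps36-ps3 had 0. Levels of the parent genes Mrpl48, Mrpl23 and Mrps36 are uncertain to the extent that the counting splits reads between near-identical copies; this was not tested.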

How the results depend on the processing

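No member was called under any setting in any comparison. Over all genes, dropping the filter on low counts moved the calls for CAA averaged from 2 to 223 and for stress averaged from 0 to 49, and DESeq2 gave 49 and 3. The median log2 fold change of the members moved by more than the spread between replicates (0.09) in 4 cases, each with 1 library left out. With each library left out in turn, it ranged from -0.0052 to 0.11 for CAA averaged, 0.05 to 0.17 for CAA in mock, -0.064 to 0.131 for CAA under stress, -0.13 to -0.03 for stress averaged, -0.08 to -0.02 for stress in WT, -0.210 to -0.037 for stress in CAA and -0.22 to -0.00098 for the interaction. The lone library of a group is then assumed to vary like the other groups, and the cause was not tested. Without the pair low in striatal markers, the medians for CAA averaged and stress averaged were 0.07 and -0.14; with a term for sex they were 0.04 and -0.07, and with the GC offset 0.07 and -0.08.

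Deviations of replicate 1 correlated between groups at -0.27 to 0.14, which gave no sign that replicate numbers pair the samples. Replicates also differed in markers of brain regions, so these values cannot show that equal numbers shared no batch. With the replicate number as a block, the medians for CAA averaged and stress averaged were 0.05 and -0.07, and 0 members were called. An exact permutation test cannot go below p = 0.333 for 2 libraries against 2, or below 0.0286 for 4 against 4. Small changes of the members could not be told from the spread between libraries.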
